A study of Mus musculus with 12 samples.

Results

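The response of isolated adult mouse cardiomyocytes to swimming was compared between animals with and without desmin. The quantity described is the interaction: the log2 change between swim and non-swim cells in Des-/- mice minus the same change in Des+/+ mice. All 12 of the 12 RNA-seq libraries of the series enter it, 3 in each of 4 groups. A positive interaction means that the swimming change lay higher in Des-/- cells, and a negative one that it lay higher in Des+/+ cells. The groups were Des+/+ non-swim, Des+/+ swim, Des-/- non-swim and Des-/- swim cells, each from mice of 3 months. Mice of both genotypes are of the 129SV strain and, by the description of the colony, carry the αMHC-GFP reporter, in which the cardiomyocyte promoter of the alpha myosin heavy chain drives green fluorescent protein. Cells were freed by perfusing the heart with trypsin and collagenase and were harvested directly, and a library pools cells of several mice, so the spread between libraries is that between pools. The swimming schedule is not given in the sources used here.

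Desmin is the intermediate filament protein of muscle. It links the Z-discs of the sarcomere to the intercalated discs, the mitochondria and the nuclear envelope. Mice without it develop a dilated cardiomyopathy with misplaced and damaged mitochondria. Swimming is a mild haemodynamic load under which a normal heart adapts its metabolism and growth. The interaction therefore addresses whether the transcripts of the contractile apparatus, of energy metabolism and of signalling pathways follow the same course under load when the filament is missing.

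The deleted gene was examined first. Des was measured at 1472, 3647 and 1982 CPM (reads per 1000000 in genes, with library sizes scaled by TMM) in the Des+/+ non-swim libraries and at 1636, 972.9 and 1210 CPM in the Des+/+ swim libraries. It lay at 72.2, 56.2 and 50.3 CPM in the Des-/- non-swim libraries and at 91.3, 97.5 and 100.5 CPM in the Des-/- swim libraries. Every Des-/- library was thus far below every Des+/+ library, and reads assigned to the locus were not absent from the former. The deposited tables held 7425291 to 12072443 reads in genes per Des+/+ library, 8058801 to 11206142 per Des-/- non-swim library and 4320819 to 6521963 per Des-/- swim library, so the swim change in Des-/- cells rests on the shallowest group. Of the 21493 genes, 13158 passed the filter on low counts and were tested. On the first principal component, which held 48.9% of the variance, Des-/- non-swim replicate 3 stood at one end and Des+/+ non-swim replicate 2 at the other. Medians without them are given beside the lists that they move most, and the plot of leave-one-out ranges shows the others.

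No gene passed the test of the interaction. With edgeR's quasi-likelihood test and Benjamini-Hochberg adjustment, 0 of 13158 genes (0%) had an adjusted p under 0.05, and the smallest adjusted p was 0.174. At an unadjusted p under 0.05 there were 2148 genes, where 658 would be counted if p-values were uniform. Of these, 1332 genes (10.1% of those tested) had a positive and 816 (6.2%) a negative interaction. DESeq2 called 318 of the 8037 genes to which it gave an adjusted p, at the same threshold of 0.05. Of these, 202 were positive and 116 negative, and they included 18 of the 24 leading genes described below. limma voom called 0. The p-values measure the spread between these libraries. The values below are therefore given as levels and differences with their errors, and no single gene is described as having changed.

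The genes at an unadjusted p under 0.05 mostly had swimming changes of opposite sign in the 2 genotypes. They were selected by the difference between the 2 changes, which favours opposite signs, so nothing is read from the counts of signs. Over all genes tested the median swimming change was −0.08 in Des+/+ and −0.01 in Des-/- cells, with a Pearson r of 0.08 between the 2 changes. Among the 1332 positive genes, 1252 were lower after swimming in Des+/+ and higher after swimming in Des-/- cells, 60 were lower in both and 20 higher in both. Their median log2 swimming change was −0.50 in Des+/+ and 0.39 in Des-/- cells. Among the 816 negative genes, 676 were higher after swimming in Des+/+ and lower in Des-/- cells, 99 were higher in both and 41 lower in both. Their median swimming changes were 0.45 and −0.37. Over all genes tested the median interaction was 0.03, with a median standard error of 0.32, and 52.6% of the genes had a positive interaction. The split between positive and negative genes depended on the scaling: 62% of the genes at p under 0.05 were positive with TMM and 42.2% with library totals alone, under which the median of all genes shifted by −0.11. The plot of swimming changes in both genotypes shows the spread of the genes around the line of equal change.

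**Figure D1:**
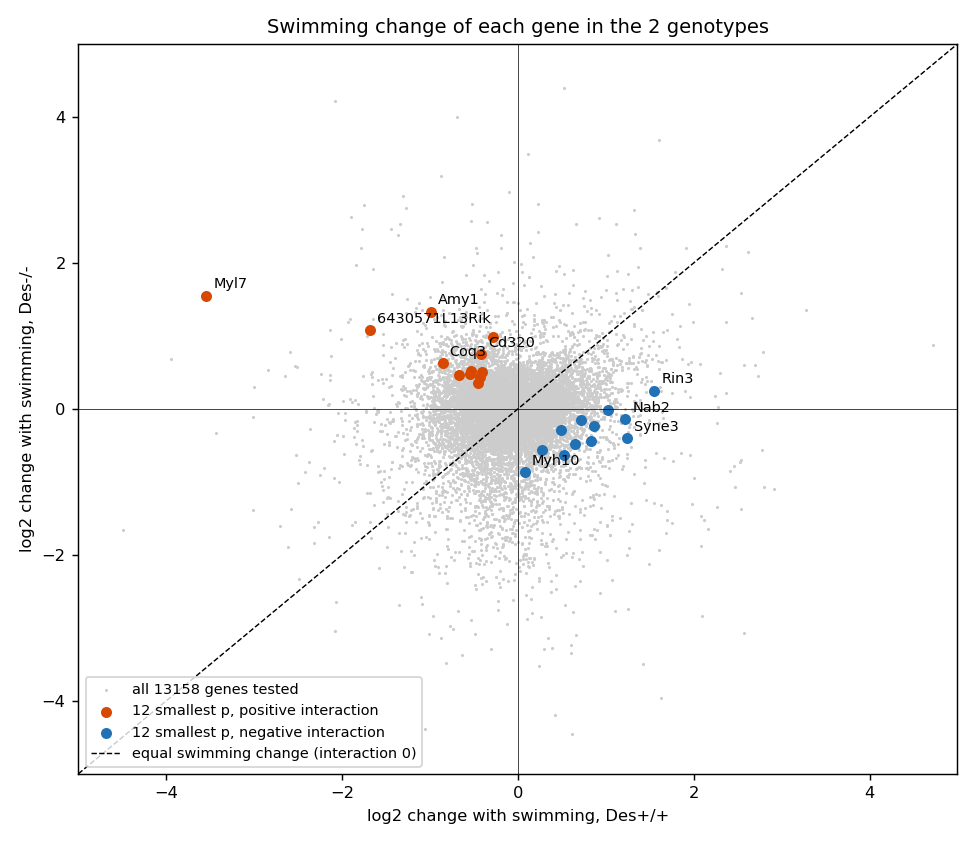
Log2 change with swimming in Des+/+ cells (x axis) against that in Des-/- cells (y axis), 1 point per gene tested, with 3 genes beyond the axes; orange and blue points are the 12 genes with the smallest p in each direction, and the dashed line marks an interaction of 0. The orange genes all lie at negative x and positive y, and 11 of the 12 blue genes lie at positive x and negative y.

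Sequences around annotated starts of genes that lead in each direction are shown because these genes open the ranking by p. RefSeq promoter windows (GRCm38.p6, 250 bases before to 50 after an annotated start) were present for 19 of the 24 leading genes, and the first 2 genes of each direction with a window are given, 5′ to 3′ on the gene's strand. Capitals mark matches on either strand to 9 short motifs. Early growth response factors were searched as GCGGGGGCG or GCGTGGGCG. The cyclic AMP response element was searched as TGACGTCA. An E-box was taken as CACGTG. For NRF1, a regulator of nuclear genes for mitochondria, the letters were GCATGCGC. For ETS factors such as GABP they were CCGGAAGT. For oestrogen-related receptors they were TCAAGGTCA. The Notch effector RBPJ was searched as GTGGGAA. The GC box was searched as GGGCGGG. The last was the TATA box, as TATAAA. Cd320 and Amy1 have 2 windows each, of which the entry listed first is printed. For Amy1 and Nab2 the window has an internal start, as it lies within the gene span given below.
Cd320, chr17:33842841-33843140, + strand: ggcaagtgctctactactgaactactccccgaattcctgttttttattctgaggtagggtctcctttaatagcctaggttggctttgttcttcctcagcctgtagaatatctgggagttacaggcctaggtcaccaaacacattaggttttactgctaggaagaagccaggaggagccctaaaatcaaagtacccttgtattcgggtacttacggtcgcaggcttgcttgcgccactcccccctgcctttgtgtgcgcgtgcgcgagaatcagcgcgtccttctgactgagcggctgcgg
Amy1, chr3:113577701-113578000, − strand: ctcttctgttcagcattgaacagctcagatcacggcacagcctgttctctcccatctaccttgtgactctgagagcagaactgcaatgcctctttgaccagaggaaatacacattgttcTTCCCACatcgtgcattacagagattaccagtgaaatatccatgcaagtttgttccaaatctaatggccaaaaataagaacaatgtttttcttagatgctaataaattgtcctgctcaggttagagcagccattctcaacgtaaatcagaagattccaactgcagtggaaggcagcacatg
Nab2, chr10:127666654-127666953, − strand: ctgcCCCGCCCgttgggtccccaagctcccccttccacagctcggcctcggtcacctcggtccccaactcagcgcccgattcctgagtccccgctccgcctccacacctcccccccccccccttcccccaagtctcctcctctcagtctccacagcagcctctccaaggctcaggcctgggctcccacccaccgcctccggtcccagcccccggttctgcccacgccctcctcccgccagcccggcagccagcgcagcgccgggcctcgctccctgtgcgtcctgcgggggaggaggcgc
Slc25a24, chr3:109122899-109123198, + strand: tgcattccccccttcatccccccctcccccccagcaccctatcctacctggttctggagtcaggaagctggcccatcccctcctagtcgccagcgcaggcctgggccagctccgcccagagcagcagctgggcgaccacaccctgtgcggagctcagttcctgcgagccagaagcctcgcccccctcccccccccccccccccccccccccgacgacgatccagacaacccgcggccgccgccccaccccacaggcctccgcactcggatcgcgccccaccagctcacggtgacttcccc
The Amy1 window held 1 RBPJ match, a motif present in 6.03% of the 13409 windows of tested genes, and the Nab2 window held 1 GC box, present in 45.5%. The windows of Cd320 and Slc25a24 held none of the 9 motifs. The GC content was 51.7% for Cd320, 42.7% for Amy1, 74.0% for Nab2 and 72.3% for Slc25a24. Across all windows of genes at p under 0.05, the GC box was present in 39.9% of those with a positive and 55.5% of those with a negative interaction, and the EGR motif in 5.92% and 8.76%. These shares are a description of the letters in the windows.

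Cd320, the receptor for cellular uptake of transcobalamin-bound vitamin B12, led the positive genes. The gene (ENSMUSG00000002308) spans chr17:33843091-33849774 in GRCm38. It was measured at 20.98, 24.1 and 21.8 CPM in Des+/+ non-swim and at 17.1, 16.2 and 16.7 CPM in Des+/+ swim libraries. In Des-/- cells it stood at 10.4, 10.9 and 11.2 CPM without and at 19.2, 16.8 and 18.5 CPM with swimming. The libraries of each genotype did not overlap, with swim lower in Des+/+ and higher in Des-/- cells. The interaction was 1.17 ± 0.19 (log2, SE; edgeR adjusted p = 0.174).

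Amy1, an alpha-amylase of a gene family with close copies, spans chr3:113555710-113606699. Des+/+ libraries held 14.1, 19.9 and 13.5 CPM without swimming and 10.9, 6.31 and 6.69 CPM with it. Des-/- libraries held 4.57, 4.87 and 2.89 CPM without and 10.7, 9.84 and 10.5 CPM with swimming. Swim and non-swim libraries were apart in both genotypes, in opposite directions, and the interaction was 2.32 ± 0.40 (edgeR adjusted p = 0.199). Coq3, a methyltransferase of coenzyme Q synthesis in the mitochondrion, lies at chr4:21879673-21912162. Its level was 45.3, 63.6 and 46.7 CPM in Des+/+ non-swim and 28.5, 24.3 and 33.2 CPM in Des+/+ swim libraries. It was 12.8, 15.5 and 11.4 CPM in Des-/- non-swim and 20.6, 18.2 and 22.3 CPM in Des-/- swim libraries, so the latter remained below all Des+/+ libraries. The interaction of Coq3 was 1.49 ± 0.26 (edgeR adjusted p = 0.199).

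Foxn2, a forkhead transcription factor at chr17:88440711-88490533, led the negative genes. It was measured at 29.5, 23.8 and 25.7 CPM in Des+/+ non-swim and 41.2, 39.2 and 43.4 CPM in Des+/+ swim libraries. The Des-/- libraries showed the reverse order, with 35.0, 35.0 and 34.0 CPM without and 22.8, 25.2 and 26.5 CPM with swimming. The interaction was −1.13 ± 0.17 (edgeR adjusted p = 0.174).

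Nab2, a corepressor that binds the EGR transcription factors, spans chr10:127660918-127668568. Des+/+ cells held 30.3, 28.4 and 32.8 CPM without and 68.9, 63.0 and 81.5 CPM with swimming. Des-/- cells held 52.7, 41.9 and 57.1 CPM without and 42.9, 51.0 and 44.5 CPM with it, and here the libraries overlapped. The interaction was −1.36 ± 0.21 (edgeR adjusted p = 0.174). Slc25a24, a calcium-regulated carrier of ATP-magnesium and phosphate in the inner mitochondrial membrane, spans chr3:109123149-109168457. It stood at 27.9, 28.3 and 28.8 CPM in Des+/+ non-swim and 52.1, 45.8 and 53.9 CPM in Des+/+ swim libraries, against 35.2, 39.4 and 51.2 CPM and 30.0, 33.2 and 29.9 CPM in the Des-/- groups. Its interaction was −1.27 ± 0.20 (edgeR adjusted p = 0.174), and its libraries were apart in both genotypes.

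**Figure D2:**
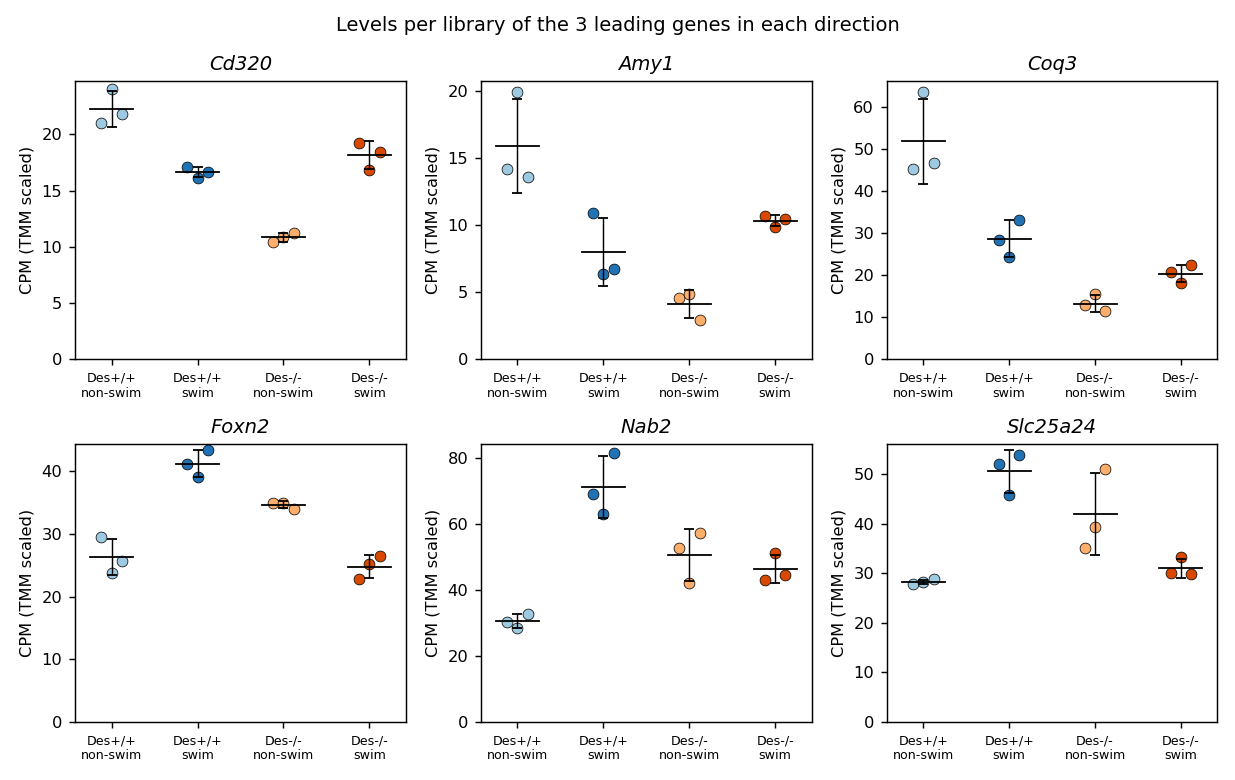
Level of the 3 leading genes of each direction in every library (y axis, CPM scaled by TMM, from 0) in the 4 groups (x axis); points are libraries, horizontal lines means and bars ± 1 SD (n = 3). The top panels show Des+/+ levels that are lower and Des-/- levels that are higher with swimming, and the bottom panels the opposite for Foxn2 and Slc25a24, whereas the Des-/- groups of Nab2 overlap.

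The other 9 leading positive genes had interactions between 0.80 and 5.10, all with the opposite sign of swimming change in the 2 genotypes. Several serve the mitochondrion: Mrps18a (0.91) and Mrps34 (1.27) are mitochondrial ribosomal proteins, Mecr (1.01) is the reductase of mitochondrial fatty acid synthesis, and Fam162a (0.87) is a hypoxia-responsive mitochondrial protein. Gtf3c6 (0.80) is a subunit of the RNA polymerase III factor TFIIIC, Tab1 (1.13) an activator of the kinase TAK1, and Ap5s1 (1.05) a subunit of the AP-5 adaptor. The transcript 6430571L13Rik had an interaction of 2.76. Myl7, the atrial myosin regulatory light chain, had the highest value, 5.10, at low levels: 3.65, 7.13 and 11.6 CPM in Des+/+ non-swim, 1.06, 0.749 and 0 CPM in Des+/+ swim, 2.55, 2.94 and 2.10 CPM in Des-/- non-swim and 5.40, 8.97 and 8.01 CPM in Des-/- swim libraries. The count of 0 allows up to 0.427 CPM in that library, for counting error only. Swim and non-swim libraries were apart in opposite directions for 11 of the 12 leading positive genes, against 1.34% of all genes tested. This count follows from the contrast that ranked the genes, and nothing is read from it.

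Among the other leading negative genes, Tet3 (−1.16), an oxidase of methylated cytosine, Sntb2 (−0.84), a syntrophin of the dystrophin complex, and Scaf4 (−0.78), a factor of transcript termination, were also apart in opposite directions. With Foxn2 and Slc25a24 these made 5 of 12, against 0.692% of all genes, again by the ranking contrast. Syne3 (−1.64) encodes nesprin-3, which joins the nuclear envelope to intermediate filaments through plectin. Rin3 (−1.30), a guanine nucleotide exchange factor for Rab5, and Rhbdf2 (−1.05), the iRhom that escorts the protease ADAM17, were higher with swimming in Des+/+ cells and nearly level in Des-/- cells. Gprc5b (−1.10) is an orphan receptor and Mapk7 (−0.87) is the kinase ERK5. Myh10 (−0.95), non-muscle myosin IIB, instead had a swimming change of 0.08 in Des+/+ and −0.87 in Des-/- cells. Within Des+/+ cells the libraries were apart for 11 of the 12 positive and 11 of the 12 negative genes (background 31.3%), and within Des-/- cells for 12 and for 6 (background 19.4%). All 24 genes kept the sign of their interaction when any library was left out, and under every other alternative run. The genes were ranked by p on these same libraries, which favours both separated libraries and stable signs, so nothing is read from either.

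The subunits of the respiratory chain were uniform in sign, a trait that several lists below shared. All 37 subunits of complex I that were tested had a positive interaction, 34 of them at an unadjusted p under 0.05 and 0 past the adjusted threshold in edgeR. DESeq2 called 15 of these subunits, and 14 of those of complexes II to V. Over all genes, it called 318 of the 8037 to which it gave an adjusted p. The median log2 change with swimming was −0.38 in Des+/+ and 0.64 in Des-/- cells, and the median interaction was 1.06, beside 0.03 over all genes. Their summed level was 9769 to 12900 CPM in Des+/+ non-swim, 6771 to 9937 CPM in Des+/+ swim, 2767 to 4690 CPM in Des-/- non-swim and 4874 to 6876 CPM in Des-/- swim libraries. The highest Des+/+ swim library thus lay just above the lowest non-swim library, and the Des-/- groups did not overlap. Ndufb9 had an interaction of 1.505 ± 0.37 and Ndufa11 of 1.06 ± 0.26. The subunits of complexes II to V followed the same pattern, with 40 of 40 positive, 32 of them at p under 0.05, and a median of 1.03. Uqcrh of complex III had an interaction of 1.19 ± 0.28 and Atp5d of the ATP synthase one of 1.25 ± 0.29. Relative to Des+/+ cells, the median complex I subunit was lower in Des-/- cells by 1.44 (log2) without swimming and by 0.45 with it, so the genotype difference was the smaller one after swimming.

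The mitochondrial ribosome had the same signs as the respiratory chain, while the cytosolic ribosome was higher with swimming at the median in both genotypes. All 78 mitochondrial ribosomal protein genes had a positive interaction, 44 at p under 0.05, with a median of 0.61 from changes of −0.33 in Des+/+ and 0.27 in Des-/- cells. Of 76 cytosolic ribosomal protein genes, 0 had p under 0.05 in either direction, 61 were positive and the median was 0.15, with swimming changes of 0.12 and 0.28. Many cytosolic ribosomal genes have processed copies, so their counts are less certain. Of 33 proteasome subunits, 32 were positive, 9 of them at p under 0.05, but the median was 0.30. The leading members were Psmc1 (0.64 ± 0.16) and Psmb1 (0.45 ± 0.17).

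Genes of fuel use also had opposite signs in the 2 genotypes. The 22 genes of fatty acid oxidation were all lower with swimming in Des+/+ cells and all higher in Des-/- cells, with median changes of −0.79 and 0.37. Their median interaction was 1.08, and 14 had p under 0.05. Etfb, the electron transfer flavoprotein subunit, had an interaction of 1.36 ± 0.38, and Eci2, an enoyl-CoA isomerase, one of 0.95 ± 0.27. All 17 genes of the citric acid cycle and pyruvate dehydrogenase were positive (median 0.82, 6 at p under 0.05), among them Suclg1 (1.18 ± 0.33) and Idh3g (1.20 ± 0.36). In glucose uptake and glycolysis, 22 of 26 genes were positive and 10 had p under 0.05, with a median of 0.88. Pdk4, the kinase that turns off pyruvate dehydrogenase when fatty acids are burned, was the strongest of these. It stood at 677, 428 and 239 CPM in Des+/+ non-swim and 582, 327 and 663 CPM in Des+/+ swim libraries, which overlapped. In Des-/- cells it was 32.2, 44.8 and 23.4 CPM without and 243, 290 and 169 CPM with swimming, and every swim library was above every non-swim one. The interaction of Pdk4 was 2.58 ± 0.56 (edgeR adjusted p = 0.199). Gapdh, whose reads are shared with many pseudogenes, had an interaction of 1.23 ± 0.29. Without Des+/+ non-swim replicate 2 and Des-/- non-swim replicate 3, the medians were 0.67 for fatty acid oxidation, 0.45 for the citric acid cycle and 0.50 for glycolysis.

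The regulators of this metabolism were more mixed. Of 21 PGC-1 and nuclear receptor genes, 4 were positive and 1 negative at p under 0.05, and the median was 0.24. Over all genes, 10.1% were positive and 6.2% negative at that threshold. Esrra, the oestrogen-related receptor alpha that drives mitochondrial genes, was 173, 205 and 184 CPM in Des+/+ non-swim and 163, 127 and 138 CPM in Des+/+ swim libraries. It was 65.3, 71.9 and 53.4 CPM in Des-/- non-swim and 119, 103 and 76.4 CPM in Des-/- swim libraries, apart in both genotypes and in opposite directions, with an interaction of 1.04 ± 0.25. Rxrg, the retinoid X receptor gamma, had an interaction of 1.74 ± 0.56. The antioxidant genes had 8 positive and 1 negative member of 26 at p under 0.05, led by the mitochondrial peroxiredoxin Prdx5 (0.95 ± 0.28) and by catalase, Cat (0.94 ± 0.33, and 0.57 without Des+/+ non-swim replicate 2).

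**Figure D3:**
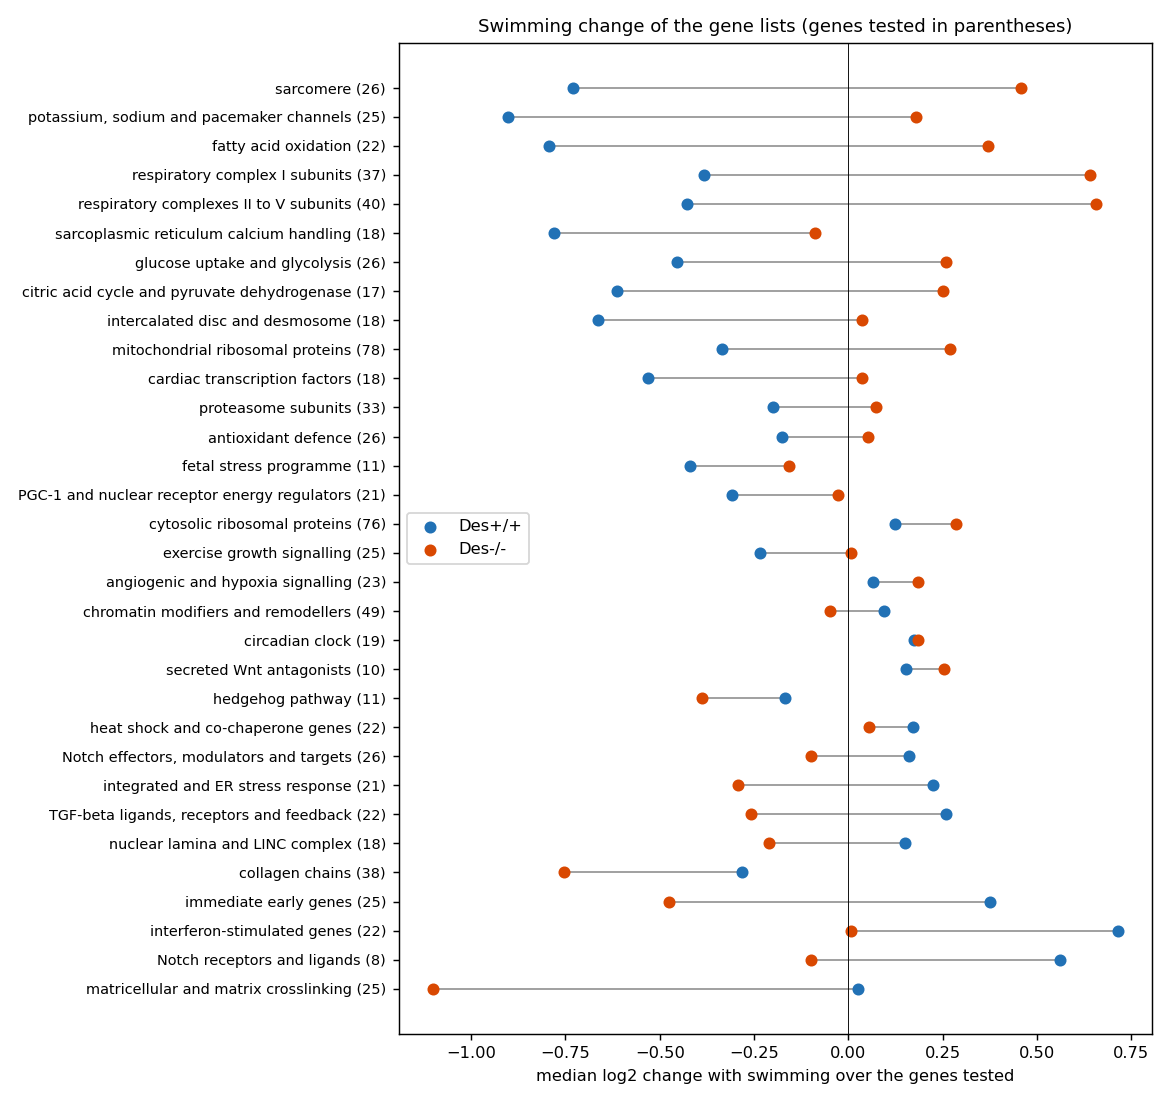
Median log2 change with swimming (x axis) of the genes tested in each of 32 pathway lists (y axis, number of genes in parentheses), in Des+/+ (blue) and Des-/- cells (orange); the length of each line shows the gap between the genotypes. Mitochondrial, fuel and sarcomere lists lie left of 0 in Des+/+ and right of 0 in Des-/- cells, whereas Notch receptors, interferon-stimulated and immediate early genes lie higher in Des+/+ cells.

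With all 12 libraries, the contractile apparatus had the largest median of the pathway lists. All 26 sarcomere genes were lower with swimming in Des+/+ cells, 24 were higher in Des-/- cells, and the median interaction was 1.28 with 11 genes at p under 0.05. Tmod1, which caps the pointed end of the thin filament, had an interaction of 1.32 ± 0.36 and Tnnc1, cardiac troponin C, one of 1.43 ± 0.41. The summed sarcomere level was 68130 to 110800 CPM in Des+/+ non-swim, 37060 to 62990 CPM in Des+/+ swim, 9232 to 34240 CPM in Des-/- non-swim and 22870 to 35890 CPM in Des-/- swim libraries. The Des+/+ groups were apart and the Des-/- groups overlapped. The sarcomere median was 0.96 without Des-/- non-swim replicate 3 and 0.63 without it and Des+/+ non-swim replicate 2, where it lay below those of complexes II to V (0.82), complex I (0.80) and fatty acid oxidation (0.67). Calcium handling genes had a median of 0.90 (6 of 18 at p under 0.05), led by triadin, Trdn (0.99 ± 0.30), and the L-type calcium channel subunit Cacna1c (1.53 ± 0.55). This median was 0.54 without Des-/- non-swim replicate 3, 1.46 without Des-/- non-swim replicate 2, and 0.44 without Des+/+ non-swim replicate 2 and Des-/- non-swim replicate 3. Channel genes had a median of 1.09 (5 of 25), among them the pacemaker channel Hcn2 (2.04 ± 0.57). Without the same libraries the channel median was 0.68, 1.69 and 0.44. The intercalated disc and desmosome genes, where desmin anchors, had a median of 0.75 with 3 of 18 positive at p under 0.05 (10.1% of all genes). That count ran from 1 to 12 and the median from 0.56 to 1.10 when single libraries were left out. Among them were Ank3 (0.99 ± 0.32) and Xirp2 (1.31 ± 0.50). Of the heart's transcription factors, 3 of 18 had a positive interaction at p under 0.05, led by Nkx2-5 (1.56 ± 0.45) and Hand2 (1.24 ± 0.48), a count that ran from 1 to 8 when single libraries were left out. In the fetal stress programme, 2 of 11 genes were positive and 1 negative at p under 0.05, with Acta1, skeletal alpha actin, at 3.10 ± 1.06 (1.82 without Des+/+ non-swim replicate 2) and Cd24a at −2.04 ± 0.60.

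The levels of cell type markers differed along with these groups. The 10 cardiomyocyte markers had a median interaction of 1.39, all positive and 4 at p under 0.05, and summed to 59470 to 90630 CPM in Des+/+ non-swim, 30180 to 50780 CPM in Des+/+ swim, 5863 to 26150 CPM in Des-/- non-swim and 15720 to 26380 CPM in Des-/- swim libraries. Their examples Tnni3, cardiac troponin I, and Cox6a2, a muscle subunit of complex IV, had interactions of 1.54 ± 0.54 and 1.64 ± 0.58. These markers are not independent of the lists above: Cox6a2 also belongs to complexes II to V, and Tnni3 is a gene of the sarcomere. As the mean over markers, the cardiomyocyte list lay above the fibroblast list in 11 of the 12 libraries. In Des-/- non-swim replicate 3 it lay below, at 8.71 against 10.3 (mean log2 CPM), so the label cardiomyocytes is not borne out by the markers there. Without that library the median interaction of the cardiomyocyte markers was 0.97, and without it and Des+/+ non-swim replicate 2 it was 0.81. In bulk RNA, fewer cells of a type and less RNA per cell cannot be told apart. The 12 fibroblast markers summed to 6422 to 7789, 5657 to 6952, 13470 to 44480 and 9164 to 17420 CPM in the same order of groups, with a median interaction of −0.70 that was −0.13 without Des-/- non-swim replicate 3. That median was −0.90 without replicate 3 of both Des-/- groups. Pi16 (−0.95 ± 0.37) and Tcf21 (−0.82 ± 0.32) were the 2 fibroblast markers with p under 0.05. The 12 macrophage markers summed to 439.6 to 4902 CPM in Des-/- non-swim and 244.9 to 1423 CPM in Des-/- swim libraries, against 231.8 to 354.8 and 263 to 327.9 CPM in the Des+/+ groups. Their median of −1.32 turned to 0.17 without Des-/- non-swim replicate 3, and was −1.17 without replicate 3 of both Des-/- groups. The part of these markers in the gene group results was not tested.

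Erythrocyte and neutrophil markers lay on the negative side, while lymphocyte markers were split. The 6 erythrocyte markers tested were all negative, each at p under 0.05, with a median of −3.54, and summed to 179.5 to 547.2 CPM in Des+/+ non-swim, 1394 to 2180 CPM in Des+/+ swim, 1471 to 4586 CPM in Des-/- non-swim and 491.3 to 2921 CPM in Des-/- swim libraries. Hbb-bs, a beta globin with a close copy, had an interaction of −3.88 ± 0.94 and Alas2, an erythroid enzyme of haem synthesis, one of −3.90 ± 0.96. Of 10 neutrophil markers 3 were tested (median −3.26, and −1.75 without Des-/- non-swim replicate 3), with Ly6g at 0 in all libraries, and S100a8 (−3.35 ± 1.38) and S100a9 (−3.26 ± 1.43) were at or below 5.42 CPM in every library. Of 11 lymphocyte markers 5 were tested, 3 negative and 2 positive with 0 at p under 0.05. Their median was −0.64. The DESeq2 median of the list was 0.02, but it was taken without the filter on low counts and can include members beyond these 5. The list summed to at most 16.5 CPM. Endothelial markers had a median of 0.10 (Vwf 0.77 ± 0.35) and mural markers one of 0.09, with the sign of both medians turned under library totals alone. The 8 atrial markers had a median of 1.19, with Myl4, an atrial myosin light chain, at 3.13 ± 0.80 beside Myl7. Schwann and neuronal markers had a median of 0.94. The summed Y-linked markers ranged from 4.06 to 244.7 CPM in Des+/+ non-swim, 143.6 to 291.6 in Des+/+ swim, 0 to 179.5 in Des-/- non-swim and 0.437 to 272.3 CPM in Des-/- swim libraries. Their mean log2 CPM was 5.14 in Des-/- non-swim replicate 3 and 5.51 in Des-/- swim replicate 3, against −2.07 to −1.35 in the other Des-/- libraries and 4.76 to 5.88 in the Des+/+ swim libraries. The Des+/+ non-swim libraries stood at 3.89, 5.64 and 0.185. Replicate 3 was thus the only library with clear Y-linked expression in either Des-/- group, and it is also the Des-/- non-swim library that stood apart on the first component. By the study's methods, sex was not a criterion for using animals. The part of the Y-linked and other markers in the results was not tested.

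**Figure D4:**
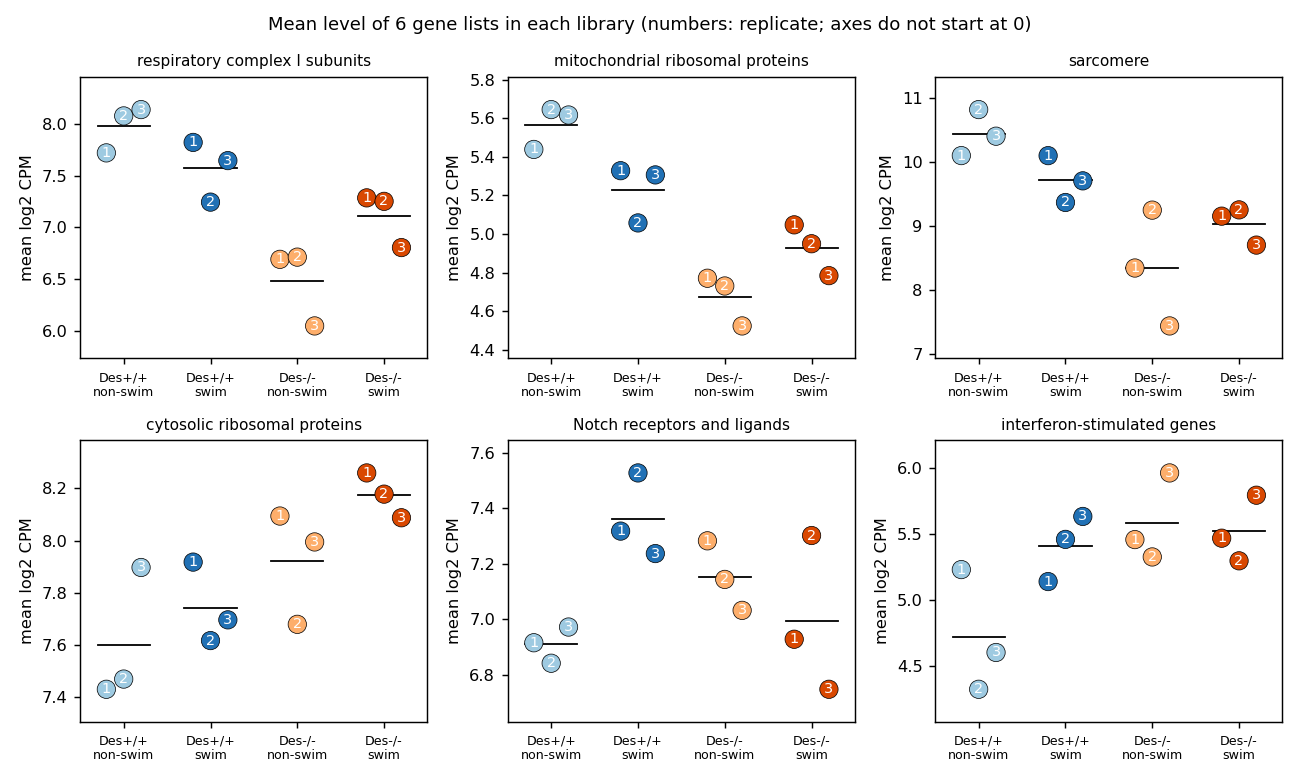
Mean log2 CPM (y axis, which does not start at 0) of 6 gene lists in each library of the 4 groups (x axis); the number in a point is the replicate and horizontal lines are group means. Des-/- non-swim replicate 3 is the lowest library for complex I, mitochondrial ribosomal and sarcomere genes, and the highest for interferon-stimulated genes.

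Notch signalling controls cell fate between neighbouring cells and is active in the developing heart. Its receptors and ligands lay on the negative side. All 8 receptor and ligand genes tested had a negative interaction, 2 of them at p under 0.05, with a median of −0.68 from swimming changes of 0.56 in Des+/+ and −0.10 in Des-/- cells. Of all genes tested, 6.2% were negative at p under 0.05, and 52.6% had a positive interaction. Notch1 (ENSMUSG00000026923, chr2:26457903-26516663) was measured at 240.4, 247.5 and 259.8 CPM in Des+/+ non-swim and 425.5, 416.5 and 423.1 CPM in Des+/+ swim libraries, a gap far larger than the spread within either group. It was 300.4, 318.5 and 235.3 CPM in Des-/- non-swim and 235.3, 307.9 and 253.4 CPM in Des-/- swim libraries, which overlapped. The interaction of Notch1 was −0.86 ± 0.21 (edgeR adjusted p = 0.199), and that of Notch4, the endothelial receptor, −0.63 ± 0.28. Notch2 had −0.76 ± 0.39 (−0.34 without Des-/- non-swim replicate 3) and Notch3 −0.13 ± 0.55, both with an unadjusted p above 0.05. Among 26 effectors, modulators and targets, 22 were negative and 5 had p under 0.05, including Nrarp, a target that feeds back on the receptor's intracellular domain (−1.03 ± 0.33), and the coactivator Maml1 (−0.59 ± 0.18). Mib1, the ubiquitin ligase that activates Notch ligands, had −0.53 ± 0.23.

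Other signalling lists gave smaller shifts, with counts of few genes to be read beside the 10.1% of all genes that were positive and the 6.2% that were negative at p under 0.05. The 22 genes of TGF-beta ligands, receptors and feedback had a median of −0.33 with 4 negative at p under 0.05, including the SMAD corepressor Ski (−0.70 ± 0.17) and Smad2 (−0.65 ± 0.19). In the hedgehog pathway 2 of 11 genes were negative at p under 0.05, the co-receptor Gas1 (−1.30 ± 0.33) and Gli3 (−1.07 ± 0.48), a count that ran from 1 to 3 when single libraries were left out. Of 10 secreted Wnt antagonists, 2 were positive and 1 negative at p under 0.05; among them Sost had 2.57 ± 0.71 at levels under 3.57 CPM, and Igfbp4 had −0.78 ± 0.26. Their median of −0.14 ran from −0.45 (without Des+/+ swim replicate 2) to 0.18 (without Des+/+ swim replicate 3). Single libraries also moved the negative count for TGF-beta from 3 to 8 and the positive count for exercise growth from 3 to 7. Of 25 genes of exercise growth signalling, 4 were positive at p under 0.05, led by Vegfb (1.40 ± 0.41) and Cited4 (1.83 ± 0.60), but the median was 0.13. Angiogenic and hypoxia genes had a median of 0.06, which turned negative under library totals alone, with Bnip3 at 0.88 ± 0.28 and Arnt at −0.36 ± 0.16. The circadian clock list had 1 gene of 19 in each direction at p under 0.05, with Bhlhe40 (−1.15 ± 0.45, and −0.74 without Des-/- non-swim replicate 3) on the negative side.

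Interferon-stimulated genes were all negative. The 22 genes tested were each higher with swimming in Des+/+ cells, with a median change of 0.72, and split evenly in Des-/- cells, with a median of 0.01. Their median interaction was −0.68, and 8 had p under 0.05, beside 6.2% of all genes that were negative at that threshold. Irf1, an interferon-induced transcription factor, had −1.01 ± 0.30 and Usp18, which limits interferon signalling, −1.12 ± 0.43. Of 25 immediate early genes, which respond to handling and stress within minutes, 22 were negative and 4 had p under 0.05, among them Maff (−1.98 ± 0.73) and Nr4a3 (−3.56 ± 1.32, and −1.42 without Des-/- non-swim replicate 3). Their median of −0.61 became 0.19 without Des-/- non-swim replicate 3, and −0.36 without replicate 3 of both Des-/- groups. In the heat shock list, 5 genes of 22 were positive and 3 negative at p under 0.05 (10.1% and 6.2% of all genes). Cryab, the small heat shock protein that binds desmin, was 668, 1030 and 914 CPM in Des+/+ non-swim and 612, 507 and 578 CPM in Des+/+ swim libraries, against 215, 290 and 198 CPM and 362, 398 and 326 CPM in the Des-/- groups. It was apart in opposite directions in the 2 genotypes, with an interaction of 1.25 ± 0.28. The inducible Hspa1a, which has a close copy, had −3.53 ± 0.94, also apart in opposite directions. The integrated and endoplasmic reticulum stress genes had 0 of 21 at p under 0.05 and a median of −0.29.

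The nuclear envelope, to which desmin connects, gave 16 of 18 negative genes in the lamina and LINC list, with 3 at p under 0.05 and a median of −0.36. Over all genes tested, 52.6% had a positive interaction, and 6.2% were negative at p under 0.05. The count of 3 ran from 2 to 5 when single libraries were left out. Syne3 led it and Lmnb1, lamin B1, followed with −1.53 ± 0.56. Of 49 chromatin modifiers and remodellers, 2 were positive (4.08%, against 10.1% of all genes) and 6 negative (12.2%, against 6.2%) at p under 0.05, and the median was −0.10. Those counts ran from 1 to 3 and from 4 to 8 when single libraries were left out. Tet3 and Smarcd3 were its examples, the latter a muscle subunit of the BAF complex with an interaction of 1.25 ± 0.28. The medians of matrix genes depended on which libraries were left out. The collagen chains had a median of −0.60 and the matricellular and crosslinking genes one of −1.04, which became −0.11 and −0.20 without Des-/- non-swim replicate 3. Without replicate 3 of both Des-/- groups the 2 medians were −0.83 and −0.96. Col18a1 (−1.11 ± 0.43), Col23a1 (1.02 ± 0.42), Thbs2 (−1.21 ± 0.40, and −0.74 without Des-/- non-swim replicate 3) and Timp2 (−0.72 ± 0.28) were their examples.

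How many members of a list had an unadjusted p under 0.05 depended on single libraries, to a degree that differed between lists. Over the 12 fits that each leave out 1 library, the count ran from 27 to 36 of 37 for complex I, from 22 to 39 of 40 for complexes II to V, from 34 to 52 of 78 for mitochondrial ribosomal proteins and from 11 to 20 of 22 for fatty acid oxidation. Sarcomere genes ran from 5 (without Des+/+ swim replicate 2) to 25 of 26 (without Des-/- non-swim replicate 2). The latter library also gave the highest counts for the citric acid cycle (3 to 16 of 17), glycolysis (8 to 17 of 26), channels (3 to 14 of 25) and calcium handling (13 of 18, against 1 without Des+/+ non-swim replicate 2). Without Des-/- swim replicate 3, 18 collagen chains, 16 matricellular and crosslinking genes, 10 immediate early genes and 11 macrophage markers were negative at p under 0.05, and without Des-/- non-swim replicate 3 only 1 of the matricellular and 0 of the immediate early genes and macrophage markers were. Interferon-stimulated genes ran from 1 (without Des+/+ non-swim replicate 3) to 14 of 22 (without Des+/+ non-swim replicate 1), Notch receptors and ligands from 1 to 4 of 8, and Notch effectors, modulators and targets from 2 to 6 of 26. The 6 erythrocyte markers had p under 0.05 in each of these fits. The signs of the medians are shown in the plot of leave-one-out ranges.

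**Figure D5:**
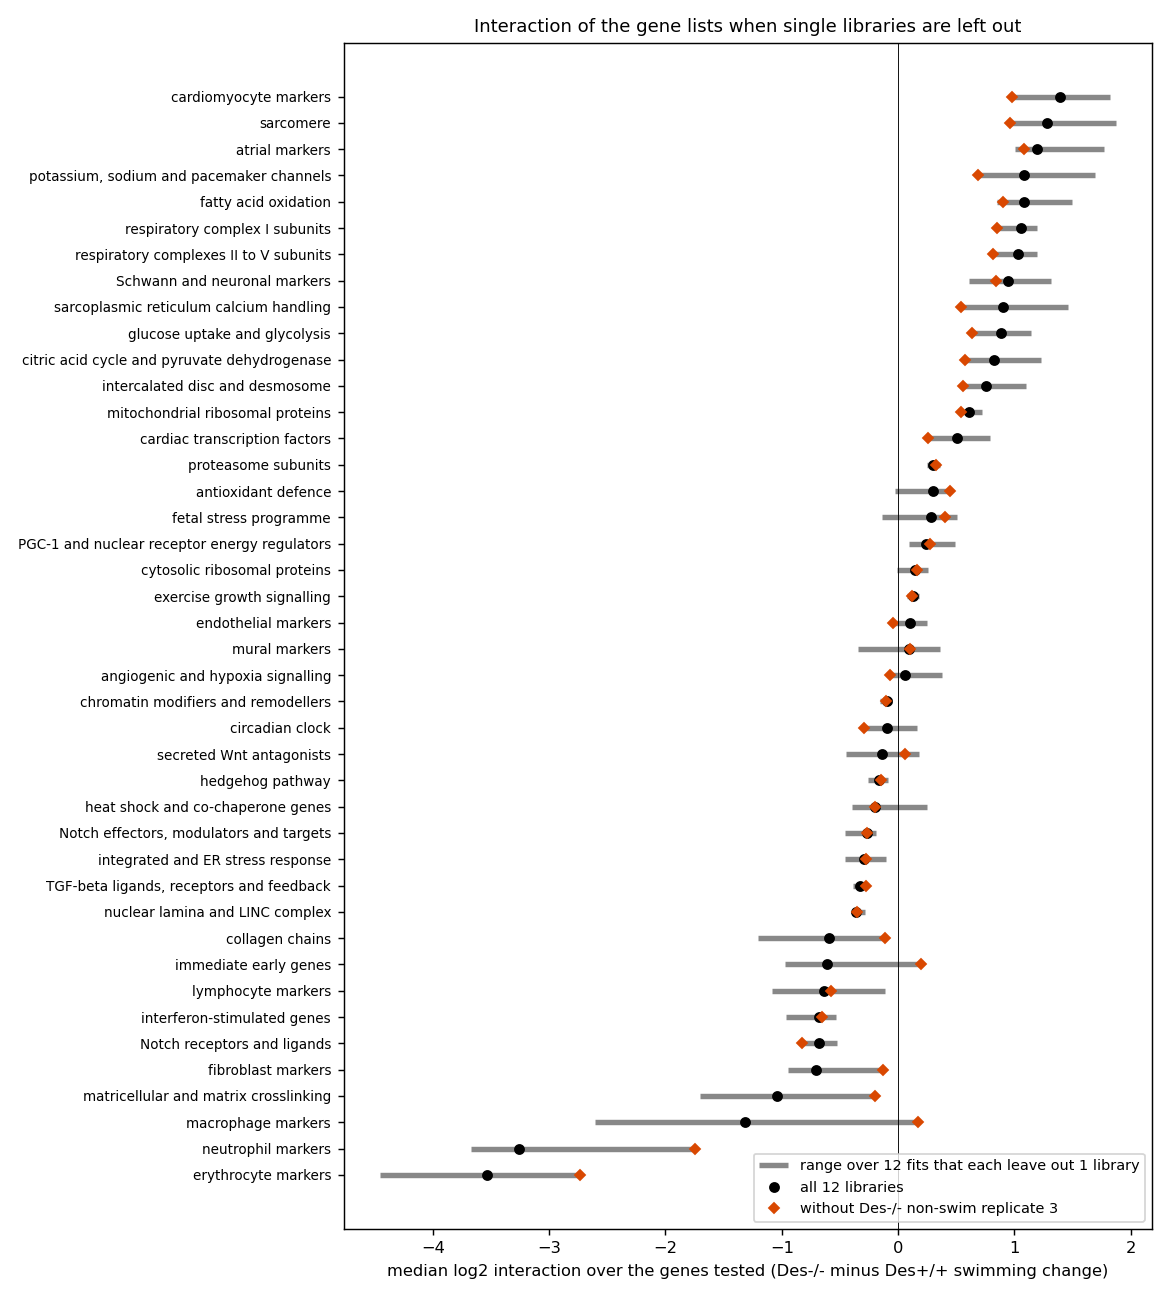
Median log2 interaction (x axis) of the genes tested in each list (y axis) with all 12 libraries (black points), without Des-/- non-swim replicate 3 (orange diamonds), and as the range over the 12 fits that each leave out 1 library (grey bars). Complex I stays between 0.85 and 1.20 and mitochondrial ribosomal proteins between 0.54 and 0.73, whereas macrophage markers span −2.61 to 0.17 and immediate early genes −0.98 to 0.19.

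The 16 genes named in the study's heat maps were shown there with values of these samples, so they are not independent evidence of their direction. Of these, 1 was positive and 3 were negative at p under 0.05, namely Nkx2-5 on the positive and Notch1, Mib1 and Fkbp1a (−0.53 ± 0.24) on the negative side. Further panel genes lay on the positive side without an unadjusted p under 0.05. Actn2 had 1.29 ± 0.70, Dsp 1.17 ± 0.64, Gja1 0.70 ± 0.39, Vdac1 0.53 ± 0.36 and Camk2d 0.21 ± 0.25. When single libraries were left out, Actn2 ran from 0.89 to 2.17, Dsp from 0.84 to 2.00 and Gja1 from 0.43 to 1.05, each highest without Des-/- non-swim replicate 2. The remaining values were 0.30 ± 0.87 for Erbb4, 0.04 ± 0.20 for Srf, 0.00 ± 0.26 for Yap1, −0.50 ± 0.32 for Pdgfra and 0.14 ± 0.43 for Kdr. The interval of each of these covers 0, which does not show that the genotypes responded alike.

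Swimming within a genotype gave few calls, and none of these genes had an interaction that passed the edgeR test. With edgeR's quasi-likelihood test, 12 genes had an adjusted p under 0.05 in Des+/+ and 3 in Des-/- cells, with 2 in both and 13 in either. All 13 were higher with swimming in both genotypes, with the exceptions of Nab2 and Rhbdf2 in Des-/- cells. Ercc1, a gene of DNA repair, was the most alike: 24.99, 36.0 and 33.9 CPM and then 77.8, 72.9 and 83.2 CPM in Des+/+, against 36.2, 35.7 and 36.0 CPM and then 84.8, 90.5 and 102 CPM in Des-/- libraries. It rose by 1.30 in Des+/+ and 1.36 in Des-/- cells, and the interaction was 0.06 ± 0.20. Pparg, a nuclear receptor of lipid metabolism, rose by 1.21 and 0.98, with an interaction of −0.22 ± 0.18. Agt, angiotensinogen, was called in Des-/- cells alone, from 1.28, 1.13 and 1.31 CPM to 18.5, 9.84 and 20.01 CPM. In Des+/+ libraries it stood at 4.01, 7.13 and 5.32 CPM without and 12.2, 14.8 and 23.3 CPM with swimming, and its interaction was 2.08 ± 0.49 (edgeR adjusted p = 0.199), so a difference between genotypes did not pass the test. Of the genes called in Des+/+ cells alone, Trim25 (−0.84 ± 0.20), Sh2b3 (−0.69 ± 0.19), Cyb561 (−0.62 ± 0.22), Adgrg1 (−0.61 ± 0.26), Tinagl1 (−0.60 ± 0.30), Pxn (−0.59 ± 0.19) and Stx3 (−0.39 ± 0.17) had interactions whose edgeR adjusted p lay between 0.199 and 0.339. DESeq2 called the interaction of Nab2, Rhbdf2, Rin3, Trim25, Sh2b3 and Pxn, which are 6 of the 13 genes, and gave Agt no adjusted p.

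The share of uniquely aligned reads that fell outside genes was higher after swimming in both genotypes. It was 36.4% ± 2.71 and 47.8% ± 2.31 in Des+/+ non-swim and swim libraries, and 45.2% ± 9.67 and 60.0% ± 3.95 in the Des-/- groups (SD, n = 3). The 2 differences, 11.4 and 14.8 percentage points, differed by 3.43 points (exact permutation test over 400 arrangements, two-sided, p = 0.775), by −2.07 points without Des-/- non-swim replicate 3, and by 0.0133 points with all reads as the denominator. The part of this share in the gene results was not tested.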

How the data were processed

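Polyadenylated RNA of the 12 libraries was sequenced by the authors as single-end reads. The deposited read counts per gene are raw counts, made per the labels with HISAT2 2.2.1, SAMtools 1.13 and HTSeq on GRCm38; the study's methods give strand-specific counting, while the labels name a kit that does not mark strand, so overlapping antisense genes are uncertain. Rows that name no gene were dropped from library sizes and tests. Counts were filtered by filterByExpr, scaled by TMM and fitted with edgeR 4.0.16 (quasi-likelihood, 1 mean per group, 8 residual degrees of freedom, Benjamini-Hochberg adjustment) in R 4.3.3, and the steps were tested on simulated data. DESeq2 1.42.0 and limma 3.58.1 were alternatives, besides other scalings, filters, a replicate block, thinning and leaving out libraries. Named genes are the 12 with the smallest p in each direction with a mean count of at least 20 in a group, genes called for swimming, genes of the study's heat maps and the 2 members of each of the 44 lists with the smallest p (values are given where p was under 0.05, and some are not reported here). The members and lists were chosen with earlier results of these data known. Positions come from GENCODE M21, which matched 21488 of 21493 identifiers. Floors (3 counts) cover counting error only, and standard errors and p-values the spread between libraries.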

Additional observations from a re-analysis of the deposited data

Results flagged for a closer look

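These results were flagged because every swim library lay on one side of every non-swim library in Des+/+ cells and on the opposite side in Des-/- cells. Only named genes were screened, many of them chosen by a small interaction p, which favours this pattern. The list is therefore not the full set of genes with it. The interaction test gave an adjusted p above 0.05 for each (edgeR quasi-likelihood test), so none is shown to differ between genotypes. On the positive side, the log2 interactions were 1.17 for Cd320, 2.32 for Amy1, 1.49 for Coq3, 5.10 for Myl7, 0.87 for Fam162a, 0.91 for Mrps18a, 1.01 for Mecr, 0.80 for Gtf3c6, 1.13 for Tab1, 2.76 for 6430571L13Rik and 1.05 for Ap5s1. Further positive values were 0.95 for Eci2, 1.25 for Cryab, 1.04 for Esrra, 2.57 for Sost and 0.64 for Psmc1. On the negative side they were −1.13 for Foxn2, −1.27 for Slc25a24, −1.16 for Tet3, −0.84 for Sntb2, −0.78 for Scaf4, −3.53 for Hspa1a, −0.59 for Maml1, −0.70 for Ski and −0.65 for Smad2. Over all genes tested, 176 (1.34%) showed the positive and 91 (0.692%) the negative form.

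The share of uniquely aligned reads outside genes lies apart from the gene measurements and was higher after swimming in both genotypes. The 2 increases differed by 3.43 percentage points (exact permutation test, two-sided, p = 0.775). With all reads as the denominator the difference was 0.0133 points.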

How the results depend on the processing

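The count of 0 called genes held under each edgeR and limma alternative, including all fits that leave out 1 library, the replicate block and an adjusted p under 0.10. DESeq2 called 318 genes of the 8037 to which it gave an adjusted p, and thresholds on an unadjusted p, fold change and count, as in the methods of the study, passed 1725 genes. The count at an unadjusted p under 0.05 was 2148 and ran from 1366 (without Des+/+ non-swim replicate 2) to 2996 when single libraries were left out. It was 1116 without Des+/+ non-swim replicate 2 and Des-/- non-swim replicate 3, an alternative chosen after seeing the data. The causes were not tested. Positive genes were 62% of that count with TMM, 42.2% with library totals alone, 51.7% with no filter on low counts, 52.4% without Des-/- swim replicate 3 and 44.4% without replicate 3 of both Des-/- groups.

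The labels give all groups the same replicate numbers. Deviations of same-numbered swim and non-swim libraries correlated at −0.41, −0.257 and 0.006 in Des+/+ and at 0.365, 0.316 and 0.602 in Des-/- cells, so all pairs were above 0.1 in Des-/- cells and none in Des+/+ cells, and the numbers were not taken as pairs over all groups. With the replicate block, 2261 genes had p under 0.05 and 0 were called, and with a replicate block within genotype 2474 and 0. Neither block changed the count of called genes.

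Sign changes of named genes fell on interactions that were small beside their standard error. Ercc1 turned to −0.0562 with library totals alone, to −0.0786 without replicate 3 of both Des-/- groups and to −0.0402 without Des+/+ non-swim replicate 2 and Des-/- non-swim replicate 3. Under the same 2-library alternatives Notch3 turned to 0.374 and 0.0744 and Yap1 to −0.0642 and −0.158, and under the latter Erbb4 turned to −0.338 and Srf to −0.0346. Srf turned to −0.0733 with library totals alone and −0.0143 with no filter, and Yap1 to −0.122 and −0.0559. Yap1 was also −0.0004 with DESeq2 size factors, −0.0087 with upper quartile scaling, −0.0018 with DESeq2 and −0.0004 with limma. When single libraries were left out, Ercc1 ran from −0.04 to 0.21, Notch3 ran from −0.90 to 0.21, Erbb4 ran from −0.18 to 1.45, Srf ran from −0.11 to 0.12, Yap1 ran from −0.16 to 0.16, and Kdr ran from −0.069 to 0.49. The share of reads outside genes ran from −2.07 points without Des-/- non-swim replicate 3 to 7.01 without Des-/- non-swim replicate 1. Depth limits the Des-/- swim group most, where 3 counts equal up to 0.656 CPM.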
